A study of Mus musculus with 14 samples.

Results

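The H3K27ac peaks at the Mcm helicase genes and Pcna were examined in E14 mouse retina. The members were the 8 genes Mcm2, Mcm3, Mcm4, Mcm5, Mcm6, Mcm7, Mcm10 and Pcna, taken by name from the 22359 protein-coding genes of the GENCODE vM1 annotation of mm9. Their peaks were all listed regions that overlapped the gene body extended by 5 kb on either side, which gave 11 of the 13463 peaks in the list. The chromatin came from CD1 retinas at embryonic day 14. The methods name whole dissected retinas, whereas the labels name retinal progenitor cells (RPCs), and none of the labels of this sample carries a knock-out or a treatment. An antibody to histone H3 acetylated at lysine 27 was used, and the labels name 2 replicate libraries and 1 control library. The control was taken here as an isotype control, although the methods allow input or isotype control for normalization. The peaks were called on a single ChIP alignment, and whether it holds both replicate libraries is not stated in its header, so no value has a replicate error and no difference between peaks was tested. After removal of redundant tags, 113543038 ChIP tags and 9210563 control tags remained, a ratio of 12.3.

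H3K27ac is deposited on nucleosomes beside active promoters and enhancers. Mcm2 to Mcm7 encode the subunits of the ring-shaped helicase that is loaded onto replication origins in G1 and unwinds DNA in S phase. Mcm10 encodes a factor needed to start the loaded helicase, and Pcna encodes the sliding clamp that holds DNA polymerases on the template. In the retina these genes are known as markers of dividing progenitors, and E2F transcription factors are known to activate them at the transition from G1 to S phase. Because the cells were profiled in bulk, a larger share of cells with the mark and more of the mark per cell cannot be told apart.

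The tissue was checked against marker genes by the presence of a listed peak within 1000 bp of the transcription start site (TSS), here called a TSS peak. A TSS peak was present at 10 of 10 genes of retinal progenitors, among them Rax and Six6, and at 4 of 5 genes of early retinal neurons, against 47.5% of all protein-coding genes. It was present at 1 of 5 genes of the retinal pigment epithelium (Pmel), at 1 of 5 genes of vessels and blood (Kdr) and at 0 of 5 lens genes. The Pmel peak, 1261 bp long with its midpoint at -1382 bp, lay upstream of the TSS and did not cover it. With 5 genes in a list, counts of 4 and 1 are not far from the share over all genes.

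All members had a listed H3K27ac peak within 1000 bp of the TSS, although at Mcm2 and Mcm10 it lay downstream of the TSS base. A TSS peak was thus found at 8 of 8 members, against 47.5% of all protein-coding genes, with a single such peak at each member. The length of these peaks had a median of 1486 bp, against 1128 bp for the TSS peaks of all 10621 protein-coding genes with one. Mcm4, Mcm5, Mcm7 and Pcna lay above the upper quartile of those genes of 1545 bp, and Mcm3 and Mcm10 below the lower quartile of 747 bp. The mean pileup, which is the number of overlapping fragments averaged over the peak after MACS scaled the ChIP library to the control, had a median of 16.6 against 16.5. The fold enrichment over the control had a median of 4.61 against 4.76. Among the members the length varied 3.84-fold, from 538 to 2068 bp, whereas the pileup varied 1.61-fold, from 11.4 to 18.4. The fold enrichment ranged from 3.29 to 6.81, a ratio of 2.07. Stricter limits (enrichment no lower than 4, q no higher than 0.001) were met by 5 of 8 members, against 35.9% of all protein-coding genes. All 8 members had a TSS peak, however, and among protein-coding genes with one the limits were met at 8032 of 10621. On that base the share of the members was not above that of other genes. These limits are part of the definition of high-confidence peaks in the methods, which also asks for a p limit and for replicates and was not applied in full here. The members that did not meet the limits were Mcm6, Mcm10 and Pcna, in each case through the fold enrichment, with Mcm10 and Pcna also above the limit on q.

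**Figure D1:**
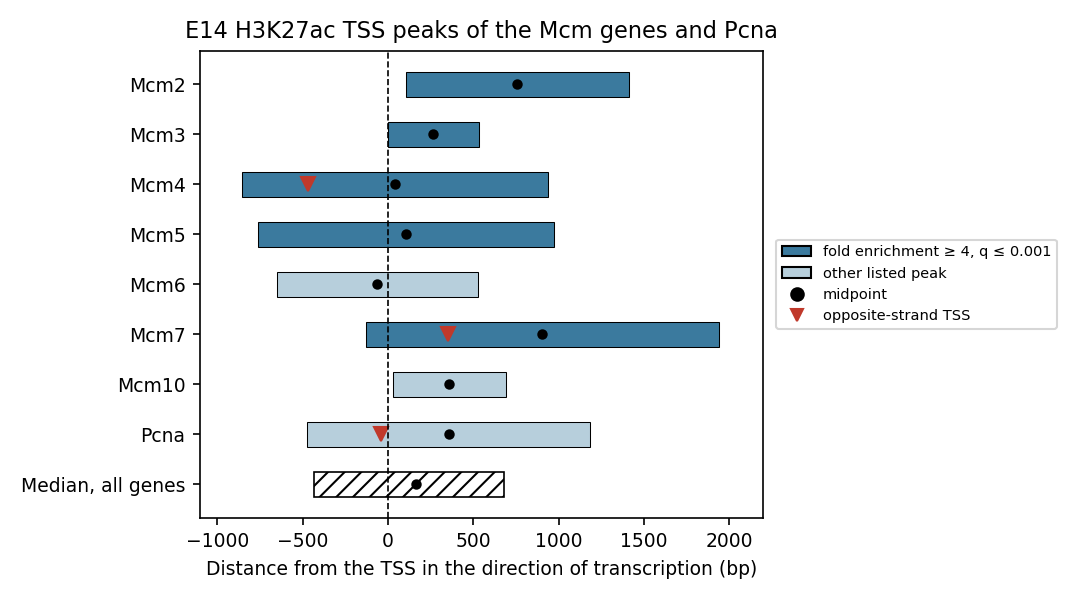
Extent of the E14 H3K27ac TSS peak of each member, in bp from the TSS in the direction of transcription (bars), with its midpoint (dots) and the nearest TSS on the opposite strand under the peak (triangles); dark bars meet the stricter limits (enrichment no lower than 4, q no higher than 0.001), and the hatched bar joins the median edges over 10621 protein-coding genes with a TSS peak. The midpoint lies downstream of the TSS for all members except Mcm6, and the peaks of Mcm2 and Mcm10 start downstream of it.

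Promoter sequences from RefSeq (GRCm38.p6, 250 bases before to 50 bases after the gene start) were matched for 7 of 8 members by symbol. The entry not matched was Mcm4. Each matched sequence occurred once, unchanged, at its gene in mm9, so its position could be set against the peaks. The promoters of Mcm3, Mcm5, Mcm6 and Mcm7 are shown because they hold full E2F motifs and differ in how far the peak reaches over them. Each is printed 5′ to 3′ on the strand of the gene, with capitals for E2F motifs on either strand. On mm9 they lie at chr1:20810344-20810643 (Mcm3, minus strand), chr8:77633158-77633457 (Mcm5, plus strand), chr1:130256233-130256532 (Mcm6, minus strand) and chr5:138613062-138613361 (Mcm7, minus strand).
Mcm3: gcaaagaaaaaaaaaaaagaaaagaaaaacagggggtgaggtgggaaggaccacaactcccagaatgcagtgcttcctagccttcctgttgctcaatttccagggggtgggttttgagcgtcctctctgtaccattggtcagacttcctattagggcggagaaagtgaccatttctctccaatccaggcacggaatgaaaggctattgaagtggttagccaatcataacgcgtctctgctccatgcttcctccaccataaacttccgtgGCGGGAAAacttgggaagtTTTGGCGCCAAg
Mcm5: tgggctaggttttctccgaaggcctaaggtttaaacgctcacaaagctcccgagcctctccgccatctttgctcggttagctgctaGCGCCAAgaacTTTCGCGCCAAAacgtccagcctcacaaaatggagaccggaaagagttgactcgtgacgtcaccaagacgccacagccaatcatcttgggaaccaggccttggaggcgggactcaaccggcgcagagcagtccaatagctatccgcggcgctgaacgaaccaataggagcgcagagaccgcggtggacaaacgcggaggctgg
Mcm6: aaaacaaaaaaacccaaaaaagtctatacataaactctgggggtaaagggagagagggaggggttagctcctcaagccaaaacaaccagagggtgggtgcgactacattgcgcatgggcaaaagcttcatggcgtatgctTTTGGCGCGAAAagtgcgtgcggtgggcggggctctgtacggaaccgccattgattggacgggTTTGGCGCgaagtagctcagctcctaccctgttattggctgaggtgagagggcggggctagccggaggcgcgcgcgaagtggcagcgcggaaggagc
Mcm7: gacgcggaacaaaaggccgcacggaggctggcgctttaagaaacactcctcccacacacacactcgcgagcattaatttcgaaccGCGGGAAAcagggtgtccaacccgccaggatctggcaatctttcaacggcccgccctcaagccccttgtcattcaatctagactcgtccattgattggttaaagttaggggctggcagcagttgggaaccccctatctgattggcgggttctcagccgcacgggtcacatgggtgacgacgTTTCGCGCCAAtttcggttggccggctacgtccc

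Motifs were searched on both strands as TTTCCCGC, TTTGGCGC, TTTCGCGC and TTTGCCGC for E2F, with the shorter cores TTCCCGC and TTGGCGC, which lie inside the first pair of octamers. An E2F octamer was present in 4 of 7 matched members (Mcm3, Mcm5, Mcm6 and Mcm7). It was present in 2.26% of all 32851 RefSeq promoters of the same length, and in 4.29% of the 9424 promoters whose gene had a TSS peak. The Mcm5 promoter held the run TTTCGCGCCAAA at -153 to -142 bp from the RefSeq start. Here TTTCGCGC and the reverse complement of TTTGGCGC overlap. The Mcm6 promoter held the like run TTTGGCGCGAAA at -110 to -99 bp and a further TTTGGCGC at -47 to -40 bp. The H3K27ac peaks of Mcm5 and Mcm6 covered 100% of these promoters, motifs included. The Mcm3 promoter held TTTGGCGCCAA at 38 to 48 bp and GCGGGAAA at 19 to 26 bp from the RefSeq start. The edge of the Mcm3 peak fell between them, with 18 of the 300 bases of the promoter in the peak, but the fragment length of 313 bp that MACS estimated does not resolve on which side of the edge either lies. The first of the pair of Mcm7 promoters in RefSeq, the one shown, held GCGGGAAA at -165 to -158 bp and TTTCGCGCCAA at 16 to 26 bp, both inside the peak.

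No E2F octamer or core was found in the promoters of Mcm2, Mcm10 or Pcna within this window. A match of letters is not a bound site, and the absence of a match says only that these letters were not there. The CCAAT motif, the letters bound by NF-Y, was found in 7 of 7 matched members, against 37.4% of all promoters and 38.0% of those of genes with a TSS peak. The GC box GGGCGG was found in 6 of 7 (all matched members but Mcm5), against 35.7% and 66.5%. The letters TTTGAA, known as a cell cycle element of later G2 and M phase genes, were found in 1 of 7 (Mcm2), against 17.9% and 10.7%. The peaks of all 8 members had a GC content below the median of all peaks of 60.2%, from 49.8% at Mcm10 to 59.5% at Mcm3. The ratio of observed to expected CpG in the peaks was 0.768 in the median member and 0.716 in the median of all peaks.

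Among the helicase subunits, Mcm7 had the longest peak and the highest pileup. Mcm7 (ENSMUSG00000029730.10) lies on chromosome 5 from 138605811 to 138613650 on the minus strand. Its peak ran from 138611712 to 138613779, with a length of 2068 bp, a pileup of 18.4 and a fold enrichment of 4.65. Its rank of 1150 in length placed it in the top 8.54% of the list, and its rank of 3469 in pileup in the top 25.8%. The midpoint lay 905 bp downstream of the TSS, the largest offset of the members. The peak reached from -129 to 1938 bp relative to the TSS, and 60.1% of it lay in the intron behind exon 1. A further annotated transcript of Mcm7 starts 604 bp downstream of this TSS, and from that start the midpoint lay at 300.5 bp. From the Mcm7 starts further in, at 1156 to 1761 bp and also under the peak, the midpoint lay upstream, at -251.5 to -856.5 bp. The same peak covered 4 TSSs of Ap4m1, a subunit of the AP-4 adaptor complex, on the opposite strand, from 354 to 420 bp downstream of the Mcm7 TSS.

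Mcm4 and Mcm5 had peaks of similar length that spread to both sides of the TSS. Mcm4 (ENSMUSG00000022673.3) is a minus-strand gene of chromosome 16 (15623990 to 15637493). Its peak ran from 15636558 to 15638351, with a length of 1794 bp (rank 1832, top 13.6%), a pileup of 15.8 (rank 5994) and a fold enrichment of 4.58. The midpoint lay 39 bp from the TSS and 47.8% of the peak lay upstream of Mcm4. There it covered the TSS of Prkdc, which encodes the catalytic subunit of the DNA-dependent protein kinase of double-strand break repair, at -466 bp on the opposite strand. Mcm5 (ENSMUSG00000005410.4), the only member on the plus strand, lies on chromosome 8 from 77633427 to 77652338. Its peak ran from 77632664 to 77634401, with a length of 1738 bp (rank 2043, top 15.2%), a pileup of 16.5 (rank 5280) and a fold enrichment of 5.13. The midpoint lay 106 bp downstream, and the peak reached from -763 to 974 bp, over exons 1 to 4. Coding sequence made up 24.3% of the Mcm5 peak, the highest share among the members. No other gene had a TSS under it.

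Mcm3 had the shortest peak of all members and the highest fold enrichment. Mcm3 (ENSMUSG00000041859.9) is a minus-strand gene of chromosome 1 (20793055 to 20810359), and its peak ran from 20809824 to 20810361. The length was 538 bp (rank 11221), the pileup 17.2 (rank 4606, top 34.2%) and the fold enrichment 6.81 (rank 836, top 6.21%), with a -log10 q of 9.52. The peak reached from -2 to 535 bp relative to the TSS. Mcm2 had almost the same pileup, 17.2 (rank 4622), in a peak of 1310 bp with a fold enrichment of 4.83. Mcm2 (ENSMUSG00000002870.7) lies on chromosome 6 from 88833469 to 88848774 on the minus strand. Its peak, from 88847362 to 88848671, began 103 bp downstream of the TSS and ended 1412 bp downstream, with 86.1% in introns and the rest in exons 1 and 2. None of the 300 bases of the RefSeq promoter of Mcm2 was in the peak.

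Mcm6 had a peak of middle length and a low fold enrichment, with a midpoint just upstream of the TSS. Mcm6 (ENSMUSG00000026355.4) lies on chromosome 1 from 130228168 to 130256233 on the minus strand, and its peak ran from 130255708 to 130256883. The length was 1176 bp (rank 5323, top 39.5%) and the pileup 16.8 (rank 5012, top 37.2%), close to that of Mcm5. The fold enrichment was 3.55 (rank 11302), so the members with similar ChIP pileup differed in their level over the control. The midpoint offset was -62.5 bp, the only negative one. For the 6 helicase subunits together, the pileup lay between 15.8 and 18.4 with a median of 17.0. The pileups overlapped the middle of all TSS peaks, for which the quartiles were 13.7 and 19.4.

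Mcm10 had the lowest pileup of the members. Mcm10 (ENSMUSG00000026669.8) lies on chromosome 2 from 4910760 to 4933837 on the minus strand. Its peak ran from 4933148 to 4933809, with a length of 662 bp (rank 9960), a pileup of 11.4 (rank 10091) and a fold enrichment of 3.54 (rank 11402). The -log10 q was 2.49, the lowest of the members. The peak began 28 bp downstream of the TSS, and 91.1% of it lay in the intron behind exon 1. A further coding transcript starts 447 bp downstream, inside the peak, and from that start the midpoint offset was -88.5 bp. The distances of 28 bp at Mcm10 and 103 bp at Mcm2 are shorter than the fragment length of 313 bp that MACS estimated, so the edges do not resolve them.

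Pcna had a long peak with the lowest fold enrichment of the members. Pcna (ENSMUSG00000027342.7) lies on chromosome 2 from 132074898 to 132079050 on the minus strand. Its peak ran from 132077865 to 132079525, with a length of 1661 bp (rank 2329, top 17.3%), a pileup of 15.7 (rank 6091, top 45.2%) and a fold enrichment of 3.29 (rank 12466, top 92.6%). The midpoint lay 355 bp downstream, and the peak reached from -475 to 1185 bp. It covered the TSS of AV099323, a non-coding transcript on the opposite strand, at -43 bp from the Pcna TSS.

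**Figure D2:**
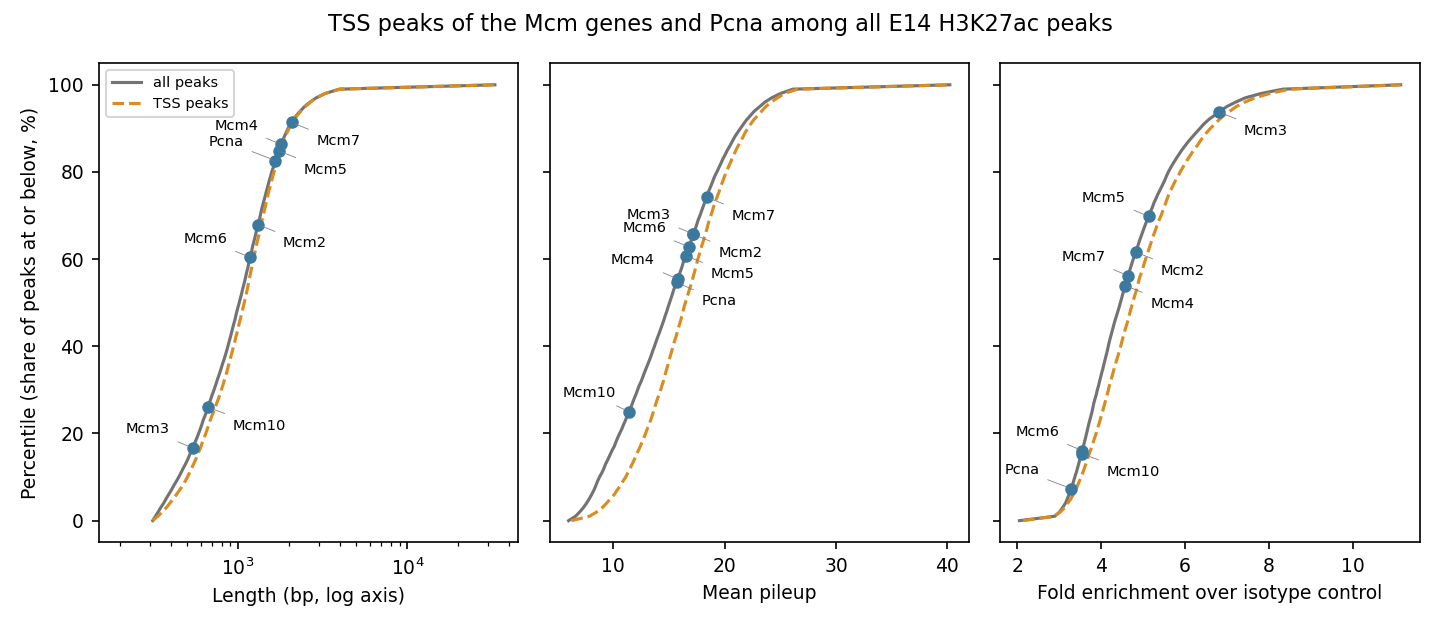
Percentile of the length, the mean pileup and the fold enrichment of each member's TSS peak (dots) among all 13463 peaks (grey line), with the 9488 distinct peaks at the TSS of protein-coding genes (dashed line). By length 6 of 8 members lie above the median of all peaks, by pileup 7 of 8, and by fold enrichment 5 of 8; above the median of the distinct TSS peaks lie 6, 5 and 3 of 8.

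The midpoint of the peak was downstream of the TSS in 7 of 8 members, with a median offset of 311 bp. For all genes with a TSS peak it was downstream in 72.7%, a share near that of the members, with a median of 163 bp. The direction depends on the start used at Mcm7 and Mcm10, where other annotated starts under the peak put the midpoint upstream. The downstream edge had a median of 955 bp against 680 bp for all genes. The upstream edge had a median of -302 bp against -433 bp. The TSS base itself was covered in 6 of 8 members (not in Mcm2 and Mcm10), against 38.6% of all protein-coding genes and 81.3% of those with a TSS peak. A TSS on the opposite strand within 1000 bp was covered in 3 of 8 members (Mcm4, Mcm7 and Pcna), against 23.7% of protein-coding genes with a TSS peak. At these 3 genes the peak covers starts of both transcription units and cannot be divided between them.

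The TSS peak was the only peak inside the gene body of each member. Besides the TSS peak, 3 of 8 members had another peak within 5 kb of the gene, against 19.2% of all protein-coding genes. Each of these 3 peaks covered a TSS of a neighbouring gene, and to which gene it belongs was not tested. The peak beside Mcm2 lay 3049 bp from the gene, at the TSS of Tpra1, with a length of 1054 bp, a pileup of 18.5 and a fold enrichment of 3.47. Its pileup was thus above that of the Mcm2 peak and its fold enrichment below. The peak beside Mcm7 lay 2833 bp beyond its 3′ end, at the TSS of Cops6, with a length of 691 bp and a pileup of 16.0. The peak beside Pcna lay 763 bp beyond its 3′ end, at the TSS of 5730494N06Rik (now Tmem230), with a length of 1120 bp, a pileup of 14.0 and a fold enrichment of 5.84. The next peaks, outside the 5 kb limit, lay 8597 bp from Mcm2, 8821 bp from Mcm7 and 9452 bp from Pcna. At the other 5 members (Mcm3, Mcm4, Mcm5, Mcm6 and Mcm10), the midpoint of the next peak lay between 42988 and 75402 bp from the TSS. Within 100 kb of the TSS the members had a median of 2.5 peaks, against 3 for all genes with a TSS peak, with the most at Mcm7, which had 10.

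The other genes of DNA replication were counted from a list of 57 genes sorted by role. A TSS peak was present at 53 of them, or 93.0%, against the 47.5% of all protein-coding genes given above. Expression was not part of the files used here, so the share among expressed genes was not compared. Of the genes listed under licensing, which include factors that load the helicase and the relatives Mcm8 and Mcm9, 11 of 12 had a TSS peak, and the gene without was Cdc6, the loader. All 11 genes of firing and of the active CMG helicase had a TSS peak. Of the polymerase genes 10 of 12 had a TSS peak, and those without were Pold4 and Pole2, small subunits of polymerases delta and epsilon. Of the clamp loader and the clamp partners 10 of 11 had a TSS peak, and the gene without was the flap endonuclease Fen1, which acts with Pcna on Okazaki fragments. The genes of single-strand binding and fork protection (6 of 6) and of nucleotide supply (5 of 5) all had a TSS peak. Cdc6, Pole2 and Fen1 had a peak elsewhere in their 5 kb window, whereas Pold4 had none.

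The highest pileup in the list was at Mcmbp, which encodes a binding partner of the Mcm proteins, with 29.1 (rank 14 among all peaks) over 832 bp. It was followed by Mcm9, a relative of the helicase subunits with a role in DNA repair, with 25.5 (rank 197) over 451 bp, and by Pole3 with 20.4. The fold enrichment of these peaks was 4.63 at Mcmbp, 3.85 at Mcm9 and 3.16 at Pole3, the last being the lowest of the list. In pileup each was above the highest member, Mcm7. The midpoint lay 696 bp downstream of the TSS at Mcm9 and 446.5 bp downstream at Mcmbp, so the listed edges of these peaks did not reach the TSS base. The longest peaks were at Cdt1, which loads the helicase, with 2075 bp, at Orc4 with 2050 bp and at Uhrf1 with 1771 bp, so that Cdt1 was close to Mcm7. The 53 TSS peaks of the list had a median length of 1115 bp, a median pileup of 15.0 and a median fold enrichment of 4.62. The stricter limits on fold enrichment and q were met at 41 of 57 genes, against 35.9% of all protein-coding genes. Among genes with a TSS peak the shares were similar, with 41 of 53 in the list and 8032 of 10621 for all protein-coding genes. The polymerases had the lowest share in the list, 5 of 12, or 5 of the 10 with a TSS peak.

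**Figure D3:**
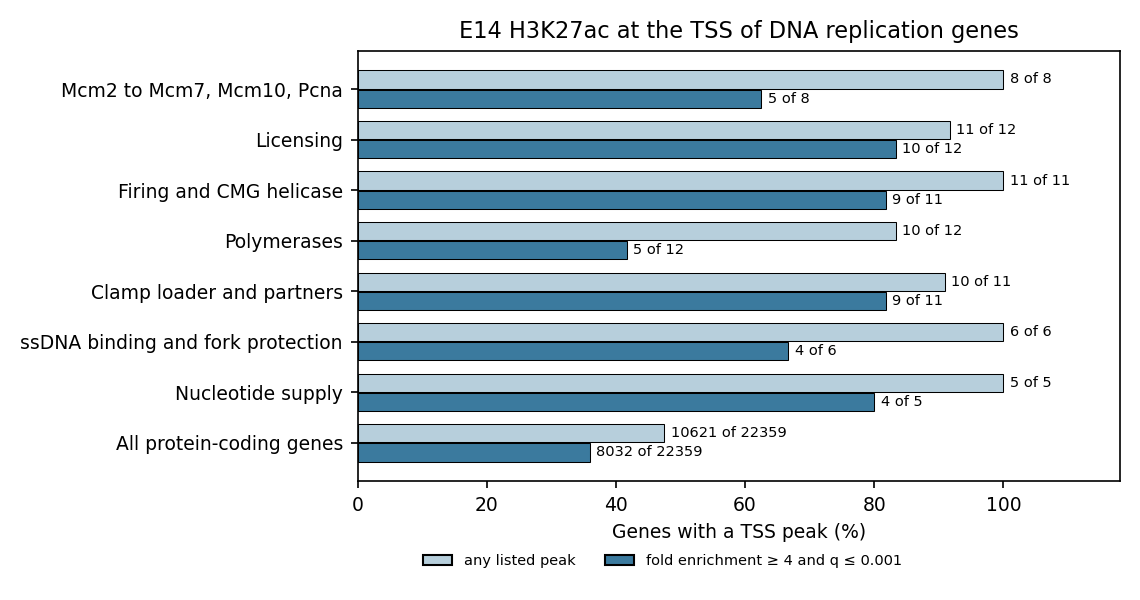
Share of genes with an E14 H3K27ac TSS peak (%, bars from 0) for the 8 members, for 6 roles of the replication gene list and for all protein-coding genes; light bars count any listed peak and dark bars those within the stricter limits (enrichment no lower than 4, q no higher than 0.001). With any listed peak every role lies above the 47.5% of all protein-coding genes, and with the stricter limits the members stand at 5 of 8.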

How the data were processed

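H3K27ac ChIP-Seq of E14 mouse retina was analysed from the deposited peak list, and the other samples of the series were not analysed here. Per the methods and the file headers, the authors used Bowtie2 and mm9 and discarded reads without a unique position. They ran MACS 2.1.0.20140616 in broad mode on 1 ChIP alignment against 1 control, taken here as an isotype control. The q cutoff was 0.05 in the header, where the methods give 0.01 for ChIP-Seq in general. The broad cutoff was 0.1, with at most 1 tag per position. The deposited pileup is a coverage signal averaged over each region, with the larger library scaled towards the smaller. The deposited fold enrichment is the ratio of ChIP to local background. The deposited -log10 p and -log10 q values are region averages, and each region has a length in bp.

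Positions were compared with GENCODE vM1 on mm9, and 0 peaks ran past a chromosome end. The TSS of a gene was the start of its protein-coding transcript with the longest coding sequence. Overlaps needed at least 1 bp. Rank 1 is the highest value, and equal values share the better rank. GC content was read from the NCBIM37 (mm9) sequence and motifs from RefSeq promoters. The members and lists were chosen with earlier results of these data known. Named were all members, genes with a TSS under a peak in a member window, and from the replication list the genes with no TSS peak and the 3 highest in pileup and in length. Mcm8, Ticrr and some marker genes were named besides these. Ticrr was found under its older name 5730590G19Rik. The peaks just outside the windows and the comparison of promoter coverage with CpG content were added after the values were seen. The labels name 2 replicate libraries and the header a single ChIP alignment, which was assumed to pool them. With 1 list there are no replicate values, so no test was made, and the depth of the control limits the fold enrichment. Alternatives for the peak limits, the overlap, the TSS, the window and the merging of peaks were computed. The scripts were tested on simulated data. Computations used Python 3.11.15, numpy 2.4.6 and matplotlib 3.10.9.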

Additional observations from a re-analysis of the deposited data

How the results depend on the processing

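Under the stricter limits (fold enrichment of at least 4 and q of at most 0.001) the members with a TSS peak fell from 8 to 5 and the peaks in their windows from 11 to 7. With the members that remained, the median length was 1738 bp, the median pileup 17.2 and the median fold enrichment 4.83. The higher median fold enrichment follows from the limit itself, which removes the peaks with lower values. These were the 5 values that moved among 23 recomputed under the alternatives. The others left the counts within 1.5 times the main value and the medians as they were, among them a q of at most 0.01 (8 members), a peak over the TSS base (6 members), windows of the gene body alone (8 peaks) and of 10 kb (14 peaks), and neighbouring peaks within 1000 bp merged. The peaks were called on a single ChIP alignment, so no replicate could be left out. No paired analysis was possible because the group analysed here has 1 peak list.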

Other observations

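The listed edges of the TSS peaks fell at different places in the core promoters of the members, although the fragment length of 313 bp is longer than the window compared, so differences in the covered share between single genes are not resolved. In the window from 250 bp before to 50 bp after the annotated TSS, the peak covered every base at Mcm4, Mcm5, Mcm6 and Pcna. There the ratio of observed to expected CpG was 0.961, 1.08, 0.937 and 1.07. The peak covered 59.7% of the window at Mcm7, 17.3% at Mcm3, 7.33% at Mcm10 and none of it at Mcm2, with ratios of 0.360, 0.571, 0.537 and 0.652. The ratios of the 4 fully covered members lay above those of the other 4, but among the other 4 the ratio did not follow the covered share, with the lowest at Mcm7 and the highest at Mcm2. Among all genes with a TSS peak, the window was fully covered in 60.8% (median ratio 0.861, quartiles 0.734 and 0.975), partly covered in 28.0% (median 0.741, quartiles 0.593 and 0.872) and not covered in 11.2% (median 0.594, quartiles 0.390 and 0.756). The ranges between the quartiles overlapped between all 3 classes. For Mcm7 the ratio depends on the start used, since the window at the RefSeq start, 539 bp downstream, was fully covered with a ratio of 0.978. This comparison was chosen after the values were seen, and its cause was not tested.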
